A study of Mus musculus with 11 samples.

Results

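Fos, Fosb, Jun, Junb, Jund, Egr1, Egr2, Nr4a1, Dusp1 and Ier2 are early response genes whose transcripts serve as a readout of recent activation, or of handling during cell isolation. They were chosen by name, each matched 1 gene in the table of 54532 genes, and all 10 passed the filter on low counts that left 13129 genes for testing. RNA was sequenced from CD8+ regulatory T cells (CD8+ Tregs), sorted from mouse spleen by flow cytometry as CD8+CD44+Ly49+CD122+ cells, in 11 libraries. All mice were wild type (C57BL/6J by the study's methods) and no treatment is listed. Splenic CD8+ cells were first pulled out on antibody-coated beads and then stained and sorted, so every library shares that handling, and the study describes each library as an independent biological replicate. The groups were Young (2 to 3 months) with 3 males and 3 females, and Old (10 to 12 months, which the study calls middle-aged) with 2 males and 3 females. Libraries are named below by group and replicate number. The study asked how the transcriptome of these cells changes as mice age.

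Immediate early genes are transcribed within minutes of a stimulus, because the factors that switch them on are already present in the resting cell and only need to be phosphorylated. In T cells, signals from the antigen receptor and from MAP kinases switch on Fos and Jun proteins, which pair to form the transcription factor AP-1, and the zinc finger factors Egr1 and Egr2, which drive later activation genes or, for Egr2, genes linked to anergy. Nr4a1, an orphan nuclear receptor, is widely used to report antigen receptor signalling, Dusp1 removes the phosphates from MAP kinases and so ends the response, and enzymatic or mechanical preparation of a tissue can induce many of the same genes.

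The total count per library ranged from 6135736 to 24394532, and the shallowest libraries were Young male 1 at 6135736 and Young female 1 at 8421396 counts, followed by Young female 3 at 15662717. Values are given in CPM, a gene's count divided by the size of its library on a common scale, with library sizes adjusted by the trimmed mean of M values (TMM), and 3 counts corresponded to between 0.119 and 0.542 CPM. The defining genes of the sort were present in every library, Cd3e at 533 to 982 CPM and Cd8a at 641 to 1014 CPM. Old female 2 stood apart in markers of myeloid cells, which summed to 2831 CPM over 10 genes there and to between 42.3 and 327 CPM in the other libraries. In that library Lyz2 was at 1055 CPM, S100a8 at 700 CPM and Mpo, which was at 0 in 6 libraries, at 185 CPM. Age differences, ranges and correlations of the members are given with and without Old female 2 and the shallow libraries. In bulk RNA a smaller number of responding cells and less RNA per cell cannot be told apart.

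The start regions of 8 members were found in the RefSeq promoter table (GRCm38.p6), each window holding 250 bases before the start and 50 after it, and no entry was found for Ier2. The Egr1 window was not used here. Parts of 4 windows are printed because Fos and Dusp1 varied together between libraries, while the correlations of Egr2 and Nr4a1 with them did not pass the test given further on. Each is written 5′ to 3′ on the strand of the gene and leaves out every base that the GENCODE annotation of the same build places in an exon. Capitals mark the core of the cAMP response element (TGACG on either strand, so that CGTCA is the same site read from the other strand), the CArG box bound by serum response factor, and the TATA box (TATAAA).
Fos: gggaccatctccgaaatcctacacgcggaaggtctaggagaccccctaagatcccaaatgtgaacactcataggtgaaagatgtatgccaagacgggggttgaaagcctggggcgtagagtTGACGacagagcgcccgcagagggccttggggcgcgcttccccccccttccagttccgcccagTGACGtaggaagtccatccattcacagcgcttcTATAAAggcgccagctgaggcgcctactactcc
Dusp1: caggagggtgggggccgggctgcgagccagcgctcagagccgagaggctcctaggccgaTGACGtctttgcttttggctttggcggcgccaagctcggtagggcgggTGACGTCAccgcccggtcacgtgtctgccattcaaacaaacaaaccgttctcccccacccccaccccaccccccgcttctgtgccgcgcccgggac
Egr2: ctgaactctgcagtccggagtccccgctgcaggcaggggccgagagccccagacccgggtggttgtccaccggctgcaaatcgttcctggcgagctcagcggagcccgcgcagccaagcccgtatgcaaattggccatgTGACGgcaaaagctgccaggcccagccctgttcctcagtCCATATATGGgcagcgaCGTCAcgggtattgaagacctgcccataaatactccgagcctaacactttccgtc
Nr4a1: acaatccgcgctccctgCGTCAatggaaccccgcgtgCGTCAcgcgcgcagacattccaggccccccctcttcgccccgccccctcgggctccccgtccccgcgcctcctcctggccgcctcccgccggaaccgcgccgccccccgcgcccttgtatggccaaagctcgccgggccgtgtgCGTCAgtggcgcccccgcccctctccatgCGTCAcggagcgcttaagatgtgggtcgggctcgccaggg
The Fos sequence, chr12:85473640-85473889 on the plus strand, lies directly before the gene, with cores beginning 129 and 66 bases before the start and a TATA box 33 bases before it. The Dusp1 sequence, chr17:26508520-26508722 on the minus strand, holds a core 191 bases before the start and a full cAMP response element (TGACG followed by TCA) 143 bases before it. The Egr2 sequence, chr10:67537619-67537868 on the plus strand, belongs to a start site inside the span that the counts table gives to Egr2 and holds a CArG box between a pair of cores, 111 and 55 bases before that start. The Nr4a1 sequence, chr15:101266596-101266845 on the plus strand, also lies inside the listed gene, outside its exons, and holds 4 cores.

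The 8 members had 12 windows, of which Egr2 had 5, some of them overlapping, and a member is counted where any of its windows holds the letters. The core was found in 8 of the 12 windows, from 6 members (Dusp1, Egr2, Fos, Fosb, Junb and Nr4a1), and in 20.8% of 32817 promoter windows of the same length. The full cAMP response element, which overlaps the core, was found in Dusp1 and in 1.79% of windows. The CArG box was found in 4 of the 5 Egr2 windows and in 1.63% of windows. The overlapping windows among the 4 hold the same site, CCATATATGG, and the other holds CCTTTTTTGG. Sites more than 250 bases before a start lay outside the windows, so a member without a match here may still have one farther upstream. The Egr2 window that lies farthest upstream, chr10:67535249-67535548, holds neither the core nor the CArG box. The same is true of the windows of Jun, which varied together with Fos and Dusp1, and of Jund. The TATA box was found in Fos, 33 bases before the start, and in Junb, and in 13.6% of windows. In Junb these letters begin at the start itself, not before it. The AP-1 site TGANTCA, where N is any base, was found in 0 of 8 members and in 7.81% of windows. Only these letters were searched, so longer or otherwise spelled sites of AP-1 were not counted. The GC box GGGCGG was found in 6 of 8 members and in 35.6% of windows. These matches describe letters in the windows, both strands being searched, and the table's Jund window ends before the gene as the counts table places it.

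Per kilobase of gene length, Junb and Ier2 were the most abundant members. Junb (chr8:84974484-84978718), a Jun family member of AP-1, averaged 326 ± 208 CPM per kb (SD, n = 11), above 98.6% of tested genes, and Ier2 (chr8:84661331-84662852), a small nuclear protein, averaged 284 ± 107 CPM per kb. The middle of the order was made of Dusp1 (chr17:26505590-26508519) at 61.5 ± 114 CPM per kb, Jund (chr8:70698949-70700616) at 51.4 ± 18.3, Fos (chr12:85473890-85477273) at 47.6 ± 56.0 and Jun (chr4:95049034-95052222) at 25.9 ± 19.8. Egr1 at 9.14 ± 5.83, Nr4a1 (chr15:101254269-101274795) at 7.56 ± 6.35 and Egr2 (chr10:67535475-67542188) at 3.89 ± 1.93 CPM per kb were lower, and Fosb (chr7:19302696-19310051) came last at 0.640 ± 1.07 CPM per kb, above 13.0% of tested genes.

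On the log2 scale the order of mean levels per kb was Ier2 8.06, Junb 8.06, Jund 5.61, Dusp1 4.43, Fos 4.18, Jun 4.14, Egr1 2.99, Nr4a1 2.41, Egr2 1.64 and Fosb −1.77. Of the 9 pairs of neighbours in this order, 2 differed beyond their spread in an exact two-sided sign-flip permutation test over the 11 libraries. The pairs and the direction of each difference were set by these same values, so the p values only describe the gaps. Junb exceeded Jund by 2.45 ± 0.97 (SD) in 11 of 11 libraries, with an exact p of 0.000977, the smallest the test can give, and a Benjamini-Hochberg adjusted p of 0.00879 over the 9 pairs. Egr2 exceeded Fosb by 3.41 ± 2.20 in 10 of 11 libraries (adjusted p = 0.00879, exact permutation test). The other 7 pairs did not pass, Jun against Egr1 coming nearest with a difference of 1.15 ± 1.48 (higher in 9 of 11 libraries, exact p = 0.0352, adjusted p = 0.105), so the middle of the order is not resolved.

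The members differed in how widely they spread between libraries. From the lowest to the highest library Fos covered 110-fold, Dusp1 90.8-fold, Nr4a1 74.4-fold, Egr2 31.0-fold and Jun 20.0-fold. Junb covered 8.20-fold, Egr1 6.88-fold, Ier2 3.45-fold and Jund 2.91-fold. Fosb ran from 0.278 CPM, on 2 counts, to 23.1 CPM. The SD of log2 CPM over the 11 libraries was higher for Fos than for 98.7% of the tested genes, and higher for Dusp1 than for 94.4% and for Fosb than for 90.5%. It was lower for Ier2 (percentile 32.9) and Jund (percentile 30.0) than for most genes. The median percentile over the 10 members was 79.4, against 50 over all genes tested. With the 2 shallow libraries and Old female 2 left out, Fos still covered 47.8-fold, Egr2 27.6-fold and Jun 16.6-fold, whereas Fosb covered 10.7-fold, Dusp1 8.55-fold, Egr1 3.57-fold and Nr4a1 2.31-fold. The highest Fosb value was Young male 1, and without it the highest was 7.37 CPM. Egr1 also covered 3.57-fold with Old female 2 alone left out. The range for Fosb rests on few counts, between 2 and 177 in a library, and that of Nr4a1 on 8 counts in its lowest library.

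**Figure D1:**
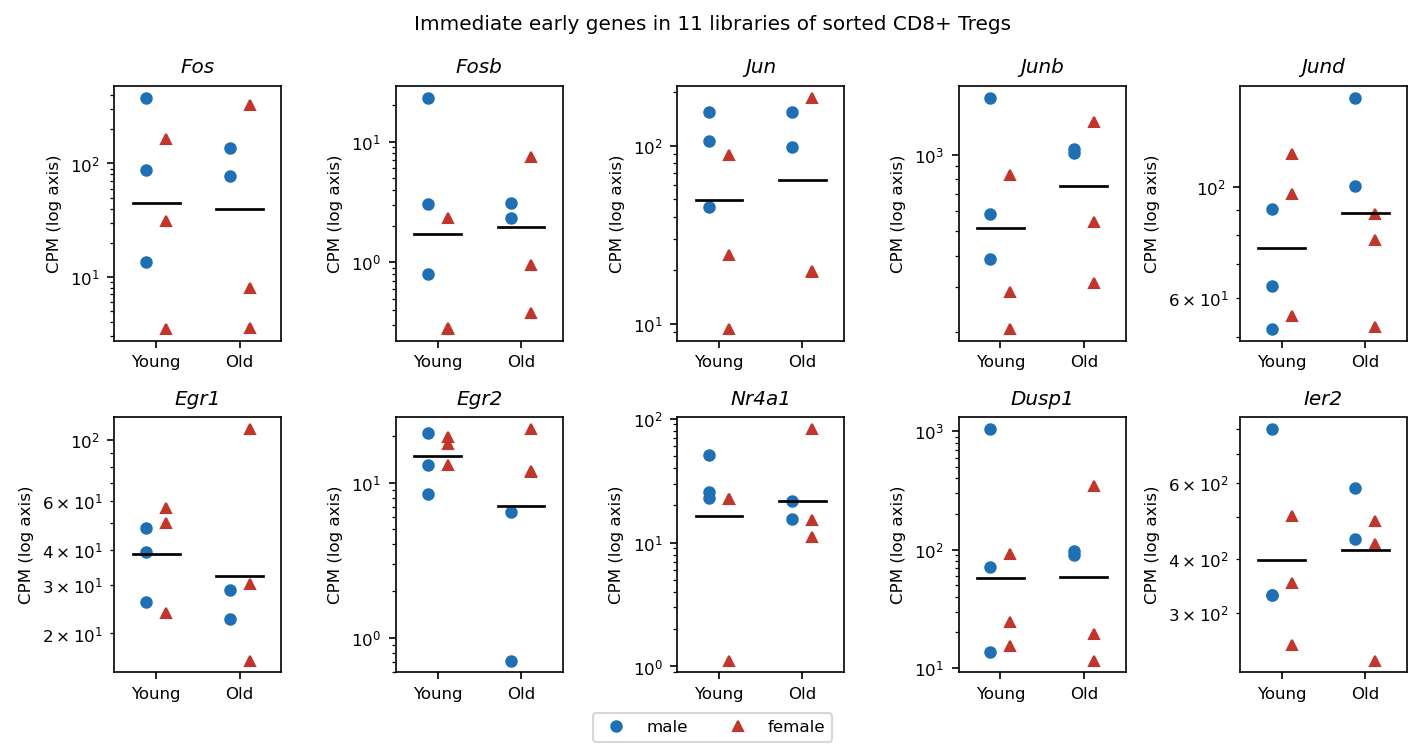
Level of each immediate early gene in 11 libraries of CD8+ Tregs, in TMM-scaled CPM on a log axis, with males as circles, females as triangles and the mean log2 CPM of each age group as a line. For all 10 genes the Young and Old libraries overlap, and Fos and Dusp1 spread over 110-fold and 90.8-fold. Without Young male 1, Young female 1 and Old female 2 these ranges are 47.8-fold and 8.55-fold.

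Fos, the inducible partner of Jun in AP-1, was at 381, 13.4 and 88.0 CPM in the Young males and at 31.1, 165 and 3.45 CPM in the Young females. It was at 77.4 and 137 CPM in the Old males and at 8.04, 325 and 3.55 CPM in the Old females. Both extremes were Young libraries, and every Old value lay inside the Young range. The log2 fold change of Old over Young, fitted in edgeR with sex as a covariate, was 0.18 ± 1.23 (SE), with a 95% interval of −2.50 to 2.86. The adjusted p over all genes tested was 1.00 in edgeR, for Fos as for each of the other members. The plain difference of mean log2 CPM had the opposite sign, −0.17, with p = 0.909 in an exact permutation test over the 11 libraries.

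Fosb, a close relative of Fos that can take its place in AP-1, was counted far less often. It was at 0.278 to 23.1 CPM in Young, with a median of 1.57, and at 2.33, 3.07, 0.952, 7.37 and 0.379 CPM in Old males 1 and 2 and Old females 1, 2 and 3. Young male 1 was the highest library, as for Fos. Old over Young was 0.21 ± 1.26 on the log2 scale in edgeR (exact permutation p = 0.866).

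Jun, which encodes c-Jun and forms AP-1 with Fos or with itself, was at 9.32 to 154 CPM in Young with a median of 67.3. In Old it was at 98.3 and 154 CPM in males and at 19.9, 187 and 19.6 CPM in females. Old female 2 was the highest library for Jun, and the 4 libraries after it were male. In edgeR the log2 fold change of Jun was 0.63 ± 0.70, with an interval of −0.89 to 2.15 (exact permutation p = 0.690).

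Junb, which pairs with Fos and BATF proteins in T cells, was at 1680, 387 and 582 CPM in Young males and at 288, 829 and 205 CPM in Young females. It was at 1056 and 1016 CPM in Old males and at 545, 1346 and 313 CPM in Old females. The median was 484 CPM in Young and 1016 CPM in Old, yet the highest library was Young and the groups overlapped. In edgeR Junb differed by 0.52 ± 0.51 on the log2 scale, with an interval of −0.59 to 1.62 (exact permutation p = 0.374).

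Jund, the Jun protein that is made steadily and responds least to stimuli, varied least between libraries. It was at 51.8 to 116 CPM in Young with a median of 76.9, and at 151, 100, 78.1, 88.1 and 52.4 CPM in the Old libraries in the order above. Its highest library was Old male 1 and its lowest Young male 1, where Fos, Fosb, Junb, Dusp1 and Ier2 were highest. Its log2 fold change was 0.24 ± 0.31, with an interval of −0.44 to 0.91 (exact permutation p = 0.463).

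Dusp1, the phosphatase that switches off MAP kinases, was at 1044 CPM in Young male 1, and at 13.6, 71.4, 24.4, 92.2 and 15.5 CPM in the other Young libraries. In Old it was at 98.3 and 89.6 CPM in males and at 19.4, 344 and 11.5 CPM in females. A single library in each age group stood well above the rest, and without those the remaining libraries of both ages lay between 11.5 and 98.3 CPM. The fitted log2 fold change of Dusp1 was 0.12 ± 1.41, with the widest interval of the 10 members, −2.95 to 3.19 (exact permutation p = 0.978).

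Ier2, a nuclear protein induced by growth factors, was at 254 to 802 CPM in Young with a median of 342, and at 584, 446, 435, 492 and 232 CPM in Old. Its levels stayed within 3.45-fold, and the age groups had nearly the same mean, 429 ± 200 CPM in Young and 438 ± 129 CPM in Old (SD, n = 6 and 5). The fitted difference was 0.07 ± 0.31 on the log2 scale, with an interval of −0.61 to 0.75 (exact permutation p = 0.825).

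Egr1, the early factor induced by the MAP kinase ERK, was at 26.0, 39.3 and 48.1 CPM in Young males and at 23.7, 50.1 and 56.9 CPM in Young females. In Old it was at 22.6 and 28.7 CPM in males and at 15.9, 110 and 30.3 CPM in females. The Old median of 28.7 CPM was below the Young median of 43.7 CPM, and Old female 2 was the highest library of all. Egr1 was high in Young female 3, where Fos, Jun and Junb had their lowest values. Old over Young was −0.10 ± 0.47 on the log2 scale in edgeR, with an interval of −1.13 to 0.93 (exact permutation p = 0.615).

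Egr2, linked in T cells to anergy and to restraint of activation, was at 21.0, 8.49 and 12.9 CPM in Young males and at 13.1, 19.6 and 17.7 CPM in Young females. In Old it was at 0.712 and 6.49 CPM in males and at 11.8, 22.1 and 11.7 CPM in females. The lowest values of Egr2 were those of the Old males, and the Old females lay within the Young range except Old female 2, which was just above it. The log2 fold change of −0.91 ± 0.60 was the most negative of the members, with an interval of −2.22 to 0.41 (exact permutation p = 0.165).

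Nr4a1, which encodes Nur77, was at 51.3, 22.8 and 25.6 CPM in Young males and at 1.11, 22.4 and 22.6 CPM in Young females. In Old it was at 21.8 and 15.6 CPM in males and at 15.1, 82.6 and 11.1 CPM in females. Leaving out the highest and the lowest library, it lay between 11.1 and 51.3 CPM, and Young female 1 stood far below the rest on 8 counts. The fitted log2 fold change of Nr4a1 was 0.37 ± 0.80, with an interval of −1.38 to 2.12 (exact permutation p = 0.766).

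No member was called different between Old and Young. In edgeR's quasi-likelihood test 0 of 10 members passed a Benjamini-Hochberg adjusted p of 0.05 over the 13129 genes, against 0.0229% of all genes tested (0.0152% higher and 0.00762% lower in Old). At an unadjusted p under 0.05 there were 0 of 10 members, against 2.99% of genes (2% higher and 0.99% lower). DESeq2 gave no p for Nr4a1, and of the other 9 members it called 0 and had 0 at an unadjusted p under 0.05. limma voom with sample quality weights called 0 of 10 and had 2 members at an unadjusted p under 0.05, Junb with a log2 fold change of 1.04 (adjusted p = 0.357) and Jun with 1.19 (adjusted p = 0.528). The age groups overlapped for all 10 members, while they did not overlap for 1.32% of genes. The log2 fold change was above 0 for 8 of 10 members and for 50.4% of all genes, with a median of 0.19 over the members and 0.003 over all genes. In the exact permutation test (two-sided, smallest possible p of 0.00216) the p values of the members ran from 0.165 for Egr2 to 0.978 for Dusp1. The intervals did not reach 1 on the log2 scale in either direction for Jund and Ier2. For Fos, Fosb and Dusp1 they reached past 2 in both directions, so for these genes the intervals hold large changes of either sign.

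The direction of 7 members turned on single libraries, while Junb, Jund and Egr2 kept their sign with each library left out in turn. Without Old female 2, the library with the high myeloid markers, 2 of 10 members were higher in Old and their median log2 fold change was −0.63. In that fit the log2 fold change was −1.88 for Fos, −1.75 for Dusp1 and −0.74 for Egr1 (edgeR, adjusted p = 1.00 for each). Without Young male 1, the shallowest library, the median was 0.71, with Dusp1 at 1.36, Fosb at 1.11 and Junb at 0.88 (edgeR, adjusted p = 1.00 for each). Leaving out Young female 1 or Young female 3 brought the number of members higher in Old to 4 of 10, with medians of −0.07 and −0.03. With the 2 shallow libraries and Old female 2 all left out, an alternative chosen after seeing the data, 3 of 10 members were higher in Old and 0 of 10 passed the adjusted threshold, with 2 at an unadjusted p under 0.05. These were Egr1 at −0.995 (edgeR, adjusted p = 0.299) and Nr4a1 at −0.59 (adjusted p = 0.665). The part of the myeloid markers in the high values of Old female 2 was not tested.

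**Figure D2:**
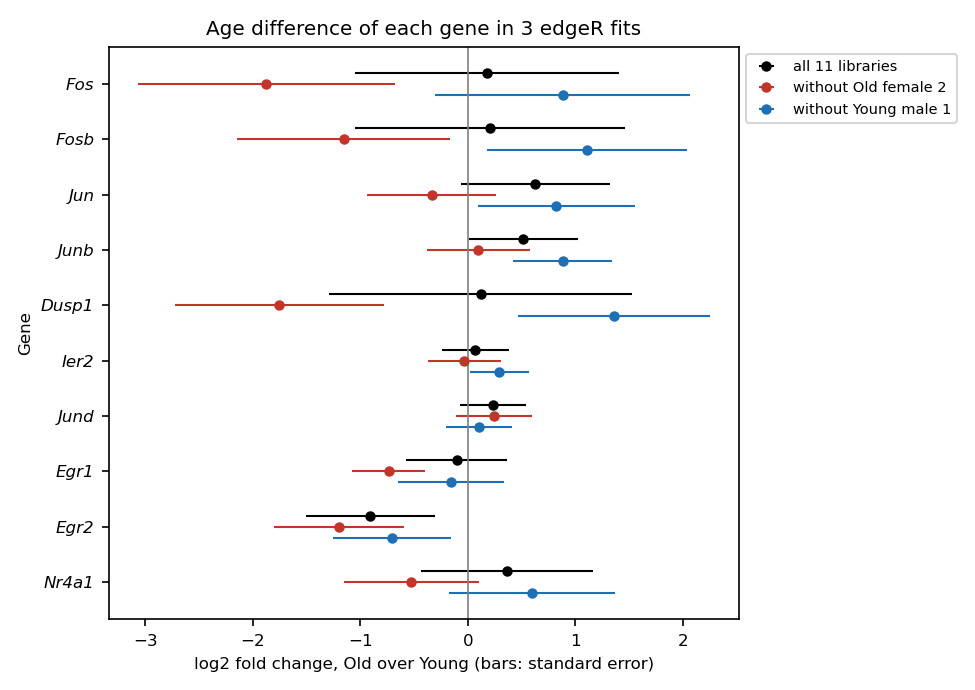
Log2 fold change of Old over Young for each gene (points) with its standard error (bars) in 3 edgeR fits, made with all 11 libraries, without Old female 2 and without Young male 1. Fos moves from 0.18 with all libraries to −1.88 without Old female 2 and to 0.88 without Young male 1, while Jund, Ier2 and Egr2 move less.

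No member was called different between the sexes, or in its age difference between the sexes. For sex, 0 of 10 members passed the adjusted threshold in edgeR and 0 had an unadjusted p under 0.05, against 0.0381% and 0.754% of genes. Egr2 had the smallest p for sex, with a log2 difference of 1.03 for females over males (edgeR, adjusted p = 1). For the interaction of age and sex, 0 of 10 members passed (0% of genes did) and 0 had an unadjusted p under 0.05 (1.2% of genes). Jund came nearest, with an interaction of −1.17 on the log2 scale (edgeR, adjusted p = 1.00), its mean log2 CPM being higher in Old by 0.88 in males and lower by 0.26 in females (a difference of −0.26).

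The libraries also differed by replicate number, which runs through all groups in the labels. The deviation of log2 CPM from the mean of each gene changed per doubling of gene length by −0.26 to −0.09 in the libraries numbered 1, by 0.01 to 0.09 in those numbered 2 and by 0.16 to 0.18 in those numbered 3. Within replicate numbers 1 and 2, which hold a male and a female of each age, Old libraries relative to Young ones stood at −2.12 and 2.16 for Fos on the mean log2 CPM scale, at −1.87 and 2.30 for Dusp1, and at −0.47 and 1.41 for Jun. Junb stood at 0.12 and 1.05. The differences of Fos, Jun and Dusp1 thus had opposite signs in numbers 1 and 2. In number 1 both Young libraries were the shallow ones, at 6135736 and 8421396 counts, and the Old ones had 23113240 and 20304535. Age and depth therefore cannot be told apart there. Number 2 holds Old female 2, the library with the high myeloid markers. Its male pair was at 13.4 CPM in Young and 137 CPM in Old for Fos. The same pair was at 13.6 and 89.6 CPM for Dusp1 and at 45.3 and 154 CPM for Jun. Number 3 has no Old male, so age and sex cannot be told apart over its 3 libraries. Its female pair was at 3.45 CPM in Young and 3.55 CPM in Old for Fos, at 15.5 and 11.5 CPM for Dusp1, at 9.32 and 19.6 CPM for Jun and at 205 and 313 CPM for Junb. No test was run within a single number.

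Fos, Fosb, Jun, Junb and Dusp1 varied together across the libraries. Over the 11 libraries their 10 pairs had Pearson correlations of 0.838 to 0.954 and Spearman correlations of 0.8 to 0.927, and all 10 passed in a permutation test, with a largest adjusted p of 0.00581 (Benjamini-Hochberg over the 45 pairs of members, 100000 permutations). The closest pair was Fosb and Dusp1 (r = 0.954, rho = 0.8, permutation p = 3e-05, adjusted p = 0.000562), and Fos and Jun, the classical AP-1 dimer, came next (r = 0.938, rho = 0.9, adjusted p = 0.000562, permutation test), level with Fosb and Junb (r = 0.938, rho = 0.927). With the 2 libraries farthest from the median of the first gene left out, the 10 correlations were 0.81 to 0.952, and with the mean of each replicate number removed they were 0.839 to 0.95. Without Old female 2 they were 0.808 to 0.947, and without that library and the 2 shallow ones 0.866 to 0.965 over 8 libraries. Within a replicate number there were at most 4 libraries, too few for a correlation. The 5 genes were grouped after their values were seen. How often pairs of other genes would pass the same test was not counted. The libraries also differed in depth and by replicate number, and the part of these in the correlations was not tested.

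Ier2 ran with these 5 genes at smaller amplitude, with r of 0.722 to 0.894 in 5 pairs that all passed (adjusted p at most 0.0371, permutation test), of which 3 passed by Spearman's rho (0.673 to 0.927). With the 2 farthest libraries left out the 5 correlations of Ier2 were 0.498 to 0.82. Jund had r of 0.018 to 0.347 with the 5 genes (0 of 5 pairs passed), and these values moved in both directions with the libraries and terms used. With the 2 farthest libraries left out they were −0.134 to 0.564, and with the mean of each replicate number removed −0.358 to 0.0032. Without Young male 1, where Jund was lowest and Fos highest, these correlations were 0.438 to 0.643, and without the 2 shallow libraries and Old female 2 they were 0.659 to 0.831 over 8 libraries. Egr1, Egr2 and Nr4a1 had correlations of −0.142 to 0.692 with the 5 genes, and 0 of 15 pairs passed, Fosb with Nr4a1 coming nearest (r = 0.692, rho = 0.655, adjusted p = 0.0505, permutation test). Over the same 8 libraries the 15 correlations were −0.539 to 0.409. With the 2 farthest libraries left out they were −0.302 to 0.757, and with the mean of each replicate number removed −0.150 to 0.778, where the highest was again Fosb with Nr4a1. Among themselves, Egr1, Egr2 and Nr4a1 had r of 0.106 to 0.517 and 0 of 3 pairs passed. That one set of pairs passed and another did not is not itself a test of a difference between them.

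**Figure D3:**
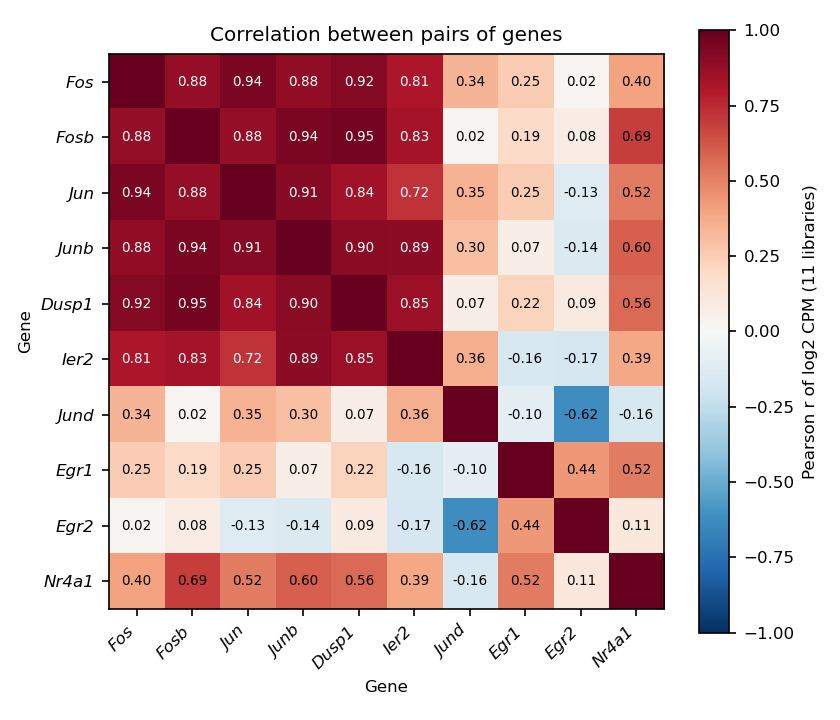
Pearson correlation of log2 CPM across 11 libraries for each pair of genes, coloured from −1 (blue) to 1 (red) and printed in each square. Fos, Fosb, Jun, Junb and Dusp1 form a block between 0.838 and 0.954 with Ier2 beside it, and Jund, Egr1 and Egr2 lie outside it.

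The same libraries were at the top and bottom for most members. Young male 1 was among the 3 highest libraries for 8 of 10 members and the highest for 5 of them, and Old female 2 was among the 3 highest for 8 and the highest for Jun, Egr1, Egr2 and Nr4a1. Old female 3 was among the 3 lowest for 8 members and Young female 3 for 7. Summed over the 10 members, the level was 4234 CPM in Young male 1 and 3003 CPM in Old female 2. Among all Young libraries the sum ranged from 639 to 4234 CPM with a median of 1141, and among the Old libraries from 686 to 3003 CPM with a median of 1997. The high libraries differed in which members led: Dusp1 was at 1044 CPM in Young male 1 and 344 CPM in Old female 2, whereas Egr1 was at 26.0 and 110 CPM. The myeloid markers summed to 121 CPM in Young male 1, within the range of the other libraries apart from Old female 2.

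**Figure D4:**
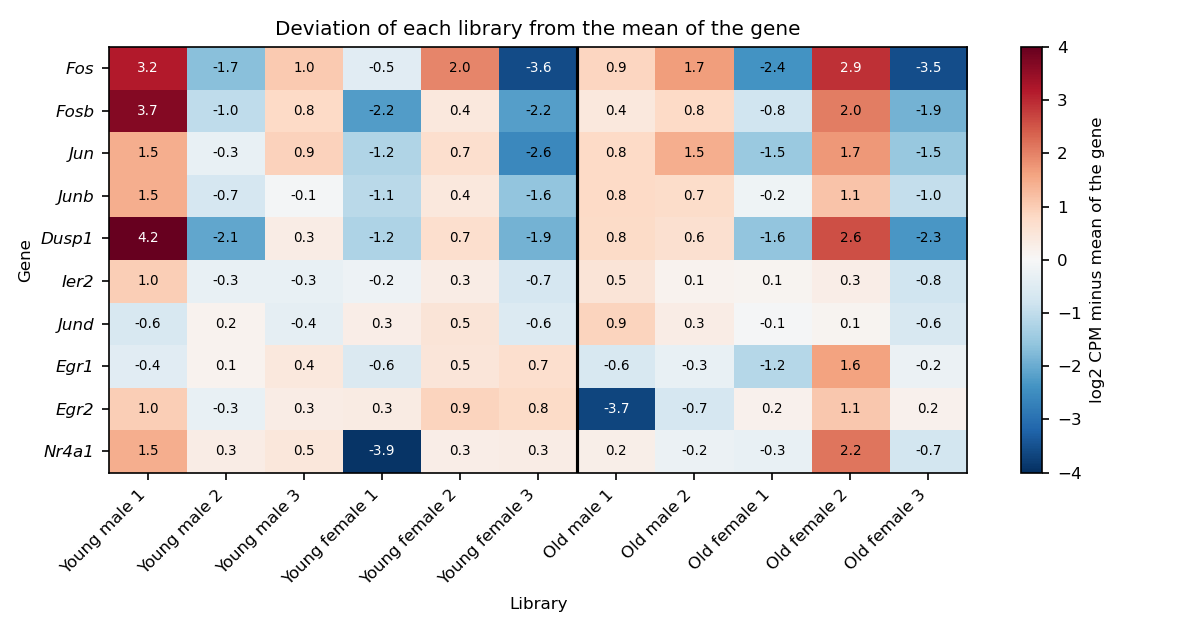
Deviation of log2 CPM in each library from the mean of the gene over 11 libraries, red above and blue below, with the 6 Young libraries left of the line and the 5 Old libraries right of it. Young male 1 and Old female 2 are red for most genes and Young female 3 and Old female 3 blue, in both age groups, and the Egr and Nr4a1 lines at the bottom differ from them in part.

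Among 8321 other genes with a mean of at least 10 CPM, Ppp1r15a followed the mean of the standardised member levels most closely over the 11 libraries. Ppp1r15a, a regulatory subunit of protein phosphatase 1 that reverses the block on translation during stress, belongs to the list of other early genes followed here, had r = 0.949 and rho = 0.936 and ranged from 25.0 to 354 CPM. Next came Siah2, a ubiquitin ligase, with r = 0.899 (9.72 to 34.0 CPM), and Oasl2 and the chemokine Ccl3, both with r = 0.846. Hdac1, Cdc37, Zmynd19 and Creld2 followed with r of 0.836, 0.832, 0.826 and 0.814. Without Old female 2 and Old female 3, r was 0.948 for Ppp1r15a, 0.921 for Siah2 and between 0.700 and 0.805 for the other 6. These 11 points share library depth and preparation, and the 8 genes were the closest of 8321, so the correlations are a description. Of the members themselves, Fosb and Fos had r of 0.941 and 0.94 with the mean they belong to, and Jund and Egr2 had 0.228 and 0.0982.

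Other genes of the early response showed single differences without the adjusted threshold being passed in any list. Among 20 other early transcription factors, 17 were tested, and 1 was higher and 1 lower at an unadjusted p under 0.05. Over all genes tested 2% were higher and 0.99% lower at that p. The median log2 fold change of the list was 0.23. Egr3, which works with Egr2 in T cells, was at 1.01 ± 0.86 CPM in Old against 3.89 ± 2.14 CPM in Young (log2 fold change −2.13 ± 0.67, edgeR, adjusted p = 0.766), the same direction as Egr2. Klf10, a repressor induced by TGF-beta, was at 81.6 ± 14.2 CPM in Old and 47.9 ± 13.9 CPM in Young (log2 fold change 0.78 ± 0.25, edgeR, adjusted p = 0.741). Atf3, a stress-induced AP-1 partner, was at 13.6 CPM in Old female 2 and at most 0.688 CPM elsewhere.

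Of 24 other early genes that encode no transcription factor, all 24 were tested, and 3 were higher and 0 lower at an unadjusted p under 0.05. Over all genes tested the shares were 2% higher and 0.99% lower. In edgeR 0 of the 24 passed the adjusted threshold. Socs3, a feedback inhibitor of cytokine receptors, was at 106.8 to 225 CPM in Old and 56.1 to 117 CPM in Young (log2 fold change 1.09 ± 0.24, edgeR, adjusted p = 0.321). Ier3 (1.23 ± 0.35, edgeR, adjusted p = 0.542) and Socs1 (0.85 ± 0.31, edgeR, adjusted p = 1.00) were the other 2. The median over the list was 0.21.

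In the remaining lists around the members few genes had an unadjusted p under 0.05, which 2.99% of all genes had. Of 14 dimer partners of AP-1 11 were tested and 0 had an unadjusted p under 0.05 in edgeR, with a median log2 fold change of 0.16. The upstream kinases and factors that drive immediate early genes had 0 of 25, with a median of 0.05, and the activation genes that follow them had 0 of 16, with a median of 0.12. Among the other dual specificity phosphatases 1 of 8 was higher at that unadjusted p, Dusp3 at 3.75 ± 2.09 CPM in Old and 0.501 ± 0.630 CPM in Young (edgeR, adjusted p = 1.00). Among 10 Egr corepressors and anergy-linked targets 1 was higher at it, the ubiquitin ligase Rnf128 at 4.93 ± 2.40 against 1.08 ± 0.94 CPM (edgeR, adjusted p = 1.00). The Egr corepressor Nab2 was at 7.57 ± 2.71 CPM in Old and 12.3 ± 5.84 CPM in Young (edgeR, adjusted p = 1.00). No gene of these lists passed the adjusted threshold.

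Heat shock genes, which rise with tissue handling, were followed beside the members. Of 11 listed genes 9 were tested, and 1 was higher at an unadjusted p under 0.05, against 2% of all genes tested. In edgeR 0 passed the adjusted threshold, and the median log2 fold change of the list was 0.19. Hspa1b, the inducible Hsp70, was at 29.0 CPM in Old female 2, 27.6 in Old male 2, 8.13 in Young male 1 and 5.03 in Old male 1, and at most 1.14 CPM in the other 7 libraries (log2 fold change 4.66 ± 1.69, edgeR, adjusted p = 1.00). Old female 2 and Young male 1, the libraries with the highest sums over the members, were thus among the 3 with the most Hspa1b. Markers of B cells summed to 112 to 411 CPM and markers of NK cells to 691 to 1416 CPM, both overlapping between the age groups. In Young male 1 the B cell markers summed to 112.5 CPM and in Old female 2 to 400.1 CPM. Of the myeloid markers 3 of 7 tested were higher in Old at an unadjusted p under 0.05 in edgeR. Of the NK cell markers 3 of 9 were lower, and of the erythroid cell and platelet markers 4 of 6, all of them globin genes, were lower. Over all genes tested 2% were higher and 0.99% lower at that p. In any of these lists 0 passed the adjusted threshold. The myeloid marker Lyz2 averaged 323 ± 418 CPM (SD) in Old, with 1055 CPM in Old female 2. S100a8 averaged 157 ± 304 CPM in Old, with 700 CPM in Old female 2. The erythroid and platelet markers summed to 27.8 to 155 CPM in Young and 1.04 to 31.4 CPM in Old, and CD4 T cell markers to 1.39 to 30.9 CPM and 10.4 to 28.5 CPM. The part of heat shock genes and of other cell types in the members' levels was not tested.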

How the data were processed

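RNA from FACS-sorted CD8+CD44+Ly49+CD122+ splenocytes was extracted on columns and made into low-input SMARTer libraries. The sources used here state that a company did the sequencing analysis. The deposited table holds whole-number counts per gene for 11 libraries. The submitters' processing notes name kallisto and mm10, and give no version. Strand settings are not given in the sources used here, so reads of overlapping antisense genes cannot be told apart. The authors' table was used as deposited.

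Columns were mapped to Young (n = 6) and Old (n = 5) by their labels. Genes were kept by filterByExpr (minimum count 10, minimum total 15), scaled by TMM and tested in edgeR 4.0.16 (R 4.3.3) with the robust quasi-likelihood test, with age and sex as terms and Benjamini-Hochberg adjustment over 13129 genes at 0.05. Log2 CPM used a prior count of 2. Alternatives were DESeq2 1.42.0, limma voom 3.58.1 with sample quality weights, other scalings and filters, a replicate block, each sex alone and each library left out. Replicate p values measure the spread between these libraries. Depth was 6135736 to 24394532 counts per library, and the floor of 3 counts covers counting error only.

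The tests were tested on simulated data with 200 of 12753 genes changed by 3 on the log2 scale. For Young against Old, edgeR recovered 74.5% of these, limma voom 73%, DESeq2 83.5% and edgeR with the replicate block within sex 66%. Of the genes each called, 3.87%, 4.58%, 22.7% and 4.35% had not been changed. Each gene was drawn separately, with no differences by sex or replicate number. The fitted age changes of the members ran from −0.91 to 0.63, so these shares do not give the power to detect changes of that size.

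Every member is named, with up to 4 genes of smallest age p from each pathway list and the 8 genes most like the members' mean. The members and lists were chosen with earlier results of these data known. Promoter windows came from RefSeq on GRCm38.p6. Protein sequences were not used here.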

Additional observations from a re-analysis of the deposited data

Results flagged for a closer look

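Nr4a1 in Young female 1 stood apart from the other 5 Young libraries. It was at 0.29 on the log2 CPM scale (1.11 CPM, 8 counts), and the nearest Young library was at 4.49. The gap was 0.779 of the whole range of the Young libraries, above Dixon's critical value for 6 samples. This was 1 of 20 sets of values examined, the 10 genes in each age group, and chance alone flags about 5% of such sets. Young female 1 was also 1 of the 2 shallow libraries, at 8421396 counts, and the part of depth in the low Nr4a1 value was not tested. In the same library Fosb was at 0.278 CPM and the other members lay within the range of the remaining libraries. Without Young female 1 the number of members higher in Old was 4 of 10, and 0 of 10 passed the adjusted threshold in edgeR.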

How the results depend on the processing

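The count of members past the adjusted threshold was 0 under all 24 alternatives, DESeq2 giving no p for Nr4a1, and the median log2 fold change of the members ran from −0.63 to 0.75. Direction was not stable for most members, but Junb and Egr2 kept theirs in 24 of 24 alternatives. limma voom with sample quality weights gave −0.28 for Nr4a1, 1.78 for Fos, 1.26 for Dusp1, 1.19 for Jun and 1.04 for Junb, with a median of 0.68 over the members. Without the sex term the log2 fold change was −0.040 for Fos, −0.79 for Fosb, 0.025 for Egr1 and −0.90 for Dusp1. In males alone it was −0.57 for Fos, −1.71 for Fosb, −0.82 for Nr4a1 and −1.99 for Dusp1, and in females alone −0.29 for Jund and 0.26 for Egr1. Without the 2 shallow libraries and the library with the most myeloid markers, chosen after seeing the data, it was −1.37 for Fos, −0.25 for Fosb, −0.29 for Jun, −0.59 for Nr4a1 and −0.34 for Dusp1. The cause of these changes was not tested. With each library left out in turn the ranges were −1.88 to 1.05 for Fos, −1.15 to 1.11 for Fosb, −0.34 to 1.23 for Jun, 0.10 to 0.90 for Junb, 0.00 to 0.41 for Jund, −0.74 to 0.091 for Egr1, −1.20 to −0.44 for Egr2, −0.53 to 0.71 for Nr4a1, −1.75 to 1.36 for Dusp1 and −0.035 to 0.29 for Ier2. The median of the members then ran from −0.63 to 0.71.

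Libraries with the same replicate number had deviations that correlated by 0.029 to 0.428 over 5 pairs, and 7 of 10 libraries correlated best with their own number. The numbers were not taken to pair the samples, because the correlation of 1 of the 5 pairs, the females numbered 2, was only 0.029. With a replicate block within sex, Fos was at −0.057, 7 of 10 members were higher in Old with a median of 0.18, 0 members passed and 2 genes in all were called. With a replicate block shared by both sexes, Fos was at −0.84, Fosb at −0.21, Dusp1 at −0.53 and Ier2 at −0.043, 4 of 10 members were higher in Old with a median of −0.091, 0 members passed and 19 genes were called in all. The number of genes called over the whole table was 3 in the reported fit, 112 in DESeq2, 138 in limma voom with those weights, 17 with a filter of 1 count in any library, 6 without the 2 shallow libraries and 5 without the sex term. Fosb and Nr4a1 could not be fitted under the filter of 10 counts in every library. Depth limits Fosb, which had 2 counts in Young female 1, where its 0.278 CPM lay under the floor of 3 counts (0.417 CPM).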
